A study of Homo sapiens with 6 samples.

Results

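Cells treated with siRNA si-RAB23-9 were compared directly with cells treated with si-RAB23-1, the other siRNA against the same gene, RAB23. The genes described are those with an FPKM (a read count scaled to gene length and library size) of at least 1 in at least 2 of the 4 libraries of these siRNAs. They were 13887 of the 58735 genes in the deposited table, 10876 of them protein coding. LINC01315 lay just inside this limit, with a second highest FPKM of 1.00. MTMR10 and DCST2 lay just outside it, at 0.9999 and 0.9998. The cells were KYSE30, an established line from a human oesophageal squamous cell carcinoma. They had been transfected at 100 nM with si-RAB23-1, si-RAB23-9 or the control siRNA si-NC, and each group had 2 libraries. The labels name no genotype, time after transfection or siRNA sequence, and the control libraries enter below only as levels. Replicates are labelled as biological, but no label says that they came from separate cultures, so a p-value here reflects only how far these libraries spread, possibly for technical reasons.

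An siRNA is a short double-stranded RNA. One of its strands is loaded into an Argonaute protein and directs it to transcripts with a matching site, which are cut. Short matches to the first bases of that strand, most often in the 3′ untranslated region (3′ UTR), can also lower other transcripts. Double-stranded RNA can in addition be sensed by receptors such as RIG-I, which switch on interferon genes. RAB23 itself is a small GTPase of the Rab family, best known for restraining Hedgehog signalling. Comparing a pair of siRNAs to the same gene shows which transcripts differ while that gene is lowered with both.

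Recovered reads numbered 17211025 and 22789183 in the si-RAB23-1 libraries, and in those of si-RAB23-9 they numbered 19179885 and 17959115. Spearman correlations over the tested genes were 0.9842 and 0.9863 within the siRNAs and 0.9693 to 0.9765 between them. The first principal component, with 58.41% of the variance, separated the siRNAs. Replicates differed by more than sampling noise, with a chi-square per degree of freedom of 3.27 for si-RAB23-1 and 1.722 for si-RAB23-9. Of 10 squamous epithelial markers 9 were tested, and KRT5 was near 0, with 0.183 and 0.273 FPKM in the si-RAB23-1 libraries and 0.0617 and 0.0394 with si-RAB23-9. Markers of fibroblasts, leukocytes, endothelium and columnar epithelium were all under 1 FPKM except COL1A1 and CDH5, and no such marker was called. CDH5, an endothelial cadherin gene, was at 1.49 and 1.97 against 2.65 and 3.07 FPKM (limma adjusted p = 0.0599). The summed level of the 8 endothelial markers was 1.82 to 2.30 with si-RAB23-1 and 3.05 to 3.54 with si-RAB23-9, and 2 of them were at 0; its part in the results was not tested. In bulk RNA, fewer cells of a kind and less RNA per cell cannot be told apart.

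RAB23 did not differ detectably between the siRNAs. RAB23 (ENSG00000112210, chromosome 6, 57186992 to 57222314, GRCh38) was at 1.03 and 1.10 FPKM in the si-RAB23-1 libraries and at 1.18 and 1.27 with si-RAB23-9. It was at 3.27 and 3.33 FPKM with si-NC, so all 4 libraries of the RAB23 siRNAs lay below the controls. The difference between the siRNAs was 0.11 on the log2(FPKM + 1) scale (SE 0.113, 95% interval -0.18 to 0.40, limma adjusted p = 0.538). It rested on 204 and 221 reads summed over 2 libraries each. RAB23 overlaps BAG2 on the other strand, and whether the libraries keep strand is not given in the sources used here.

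Against that shared reduction, many other genes differed. At a limma adjusted p under 0.05 over all tested genes, 1065 genes were higher with si-RAB23-9 than with si-RAB23-1 (7.67% of those tested) and 932 were lower (6.71%), together 14.4%. The groups of 2 libraries did not overlap for any of these called genes, and neither did they for 64.0% of all tested genes. Most differences were small. The median absolute log2 difference among called genes was 0.383, and 24 higher and 32 lower genes reached 1. The median over all tested genes was 0.0006. Calls were more frequent at high levels, with 4.02% of genes under a mean of 2 FPKM and 24.9% of those at 100 FPKM or more. The counts depended on which library was left out. With replicate 1 of si-RAB23-1 left out, 440 genes were higher and 351 lower, and with its replicate 2 left out 1093 and 960. With replicate 1 of si-RAB23-9 left out the counts were 201 and 194, and with its replicate 2 left out 163 and 160. Each of these fits has 1 residual degree of freedom in place of 2.

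**Figure D1:**
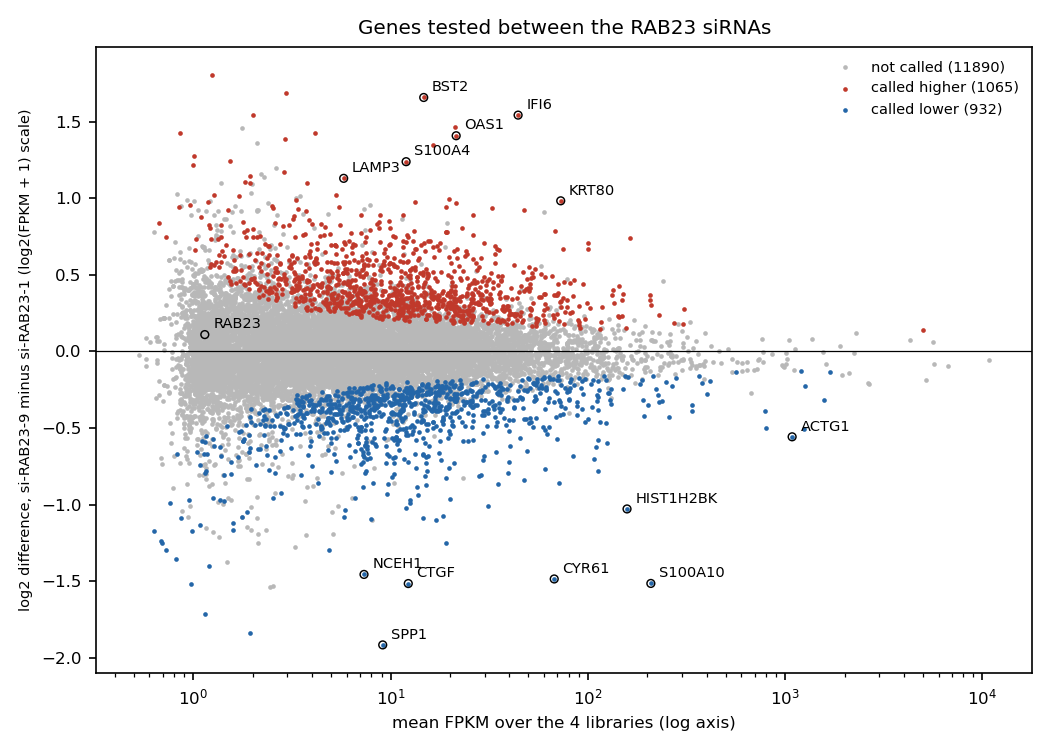
Log2 difference of each tested gene between si-RAB23-9 and si-RAB23-1 (vertical axis, log2(FPKM + 1) scale) against its mean FPKM over the 4 libraries (horizontal log axis). Red points are the 1065 genes called higher, blue points the 932 called lower, and named genes are circled, with RAB23 near the zero line and the interferon gene BST2 and SPP1 far from it.

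Among called genes with at least 20 reads on average, the largest positive differences were led by interferon-induced antiviral genes. BST2 (ENSG00000130303, chromosome 19, 17402939 to 17405648), which encodes tetherin, a membrane protein that holds budding virions on the cell, was at 5.99 and 7.19 FPKM with si-RAB23-1 and at 23.4 and 22.4 with si-RAB23-9. The log2 difference was 1.66 (SE 0.0877, limma adjusted p = 0.00526). IFI6, an interferon-induced protein of the endoplasmic reticulum, was at 19.5 and 25.1 against 68.1 and 64.6 FPKM, a difference of 1.54. IFITM1, whose product blocks the entry of viruses, was at 10.2 and 11.3 against 31.5 and 31.4 FPKM, a difference of 1.46. Because the annotated IFITM2 gene spans IFITM1 on the same strand, the split of reads between that pair is uncertain. The oligoadenylate synthetases, which detect double-stranded RNA, came next. OAS1 was at 10.8 and 11.8 against 32.7 and 30.7 FPKM, OAS2 at 1.65 and 1.93 against 6.77 and 6.23, and OAS3 at 8.81 and 8.77 against 24.4 and 23.5. Their log2 differences were 1.41, 1.43 and 1.35. In si-NC, BST2 was at 6.18 and 5.39 FPKM, IFI6 at 19.4 and 18.98, and OAS1 at 11.8 and 12.2, so these controls lay near the si-RAB23-1 libraries.

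The promoters of such genes often carry the interferon-stimulated response element, the site bound by interferon-activated transcription factors. The core of this element was searched on both strands, with overlapping matches counted, in RefSeq promoter windows (250 bases before to 50 after each start, GRCh38.p14). The core occurs in 3.57% of all 35116 windows. A window was found for 30 of the 42 tested interferon effectors (71.4%) and for 74.9% of all genes called higher. Both shares are under 80%, so a comparison of these sets is void and none is given. The stretches of 40 bases below show the match in capitals for BST2, IFI6, OAS3 and ISG15, a ubiquitin-like modifier, as examples among the members with a match. OAS1 and HELZ2 have none in their windows. They lie on chromosome 19 from 17405736 to 17405775 (BST2, minus strand), chromosome 1 from 27672324 to 27672363 (IFI6, minus strand), chromosome 12 from 112938316 to 112938355 (OAS3, plus strand) and chromosome 1 from 1013369 to 1013408 (ISG15, plus strand). A match is a description of the letters, and binding was not measured.
BST2: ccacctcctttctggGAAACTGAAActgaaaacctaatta
IFI6: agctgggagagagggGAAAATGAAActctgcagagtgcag
OAS3: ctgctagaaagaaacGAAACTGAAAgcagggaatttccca
ISG15: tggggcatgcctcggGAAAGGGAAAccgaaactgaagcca

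Most tested interferon-stimulated effectors were higher with si-RAB23-9. Of the list's 50 genes 42 were tested, and 33 of these were higher with si-RAB23-9 and 0 lower, against 7.67% and 6.71% of all tested genes. The list's median log2 difference was 0.54, beside 0.0006 over all genes. ISG15 was at 119 and 125 against 201 and 207 FPKM, and IFIT1, which binds viral RNA caps, at 14.4 and 14 against 29.6 and 28.0. These differences were 0.74 and 0.97, and both genes were picked from the list after their values were seen. Not every member was called. IFIT2, a neighbour of IFIT1 on chromosome 10, was at 40.0 and 38.7 against 37.7 and 37.8 FPKM (log2 difference -0.06, limma adjusted p = 0.351). The 8 members below the FPKM limit included MX1, at 0.0841 and 0.131 against 0.111 and 0.131, and RSAD2, at 0.450 and 0.363 against 0.548 and 0.548. The number of members called higher was 25 and 28 with replicate 1 or 2 of si-RAB23-1 left out and 20 and 19 with replicate 1 or 2 of si-RAB23-9 left out. Where 4 counts are given below for a list, they follow this order of libraries left out.

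**Figure D2:**
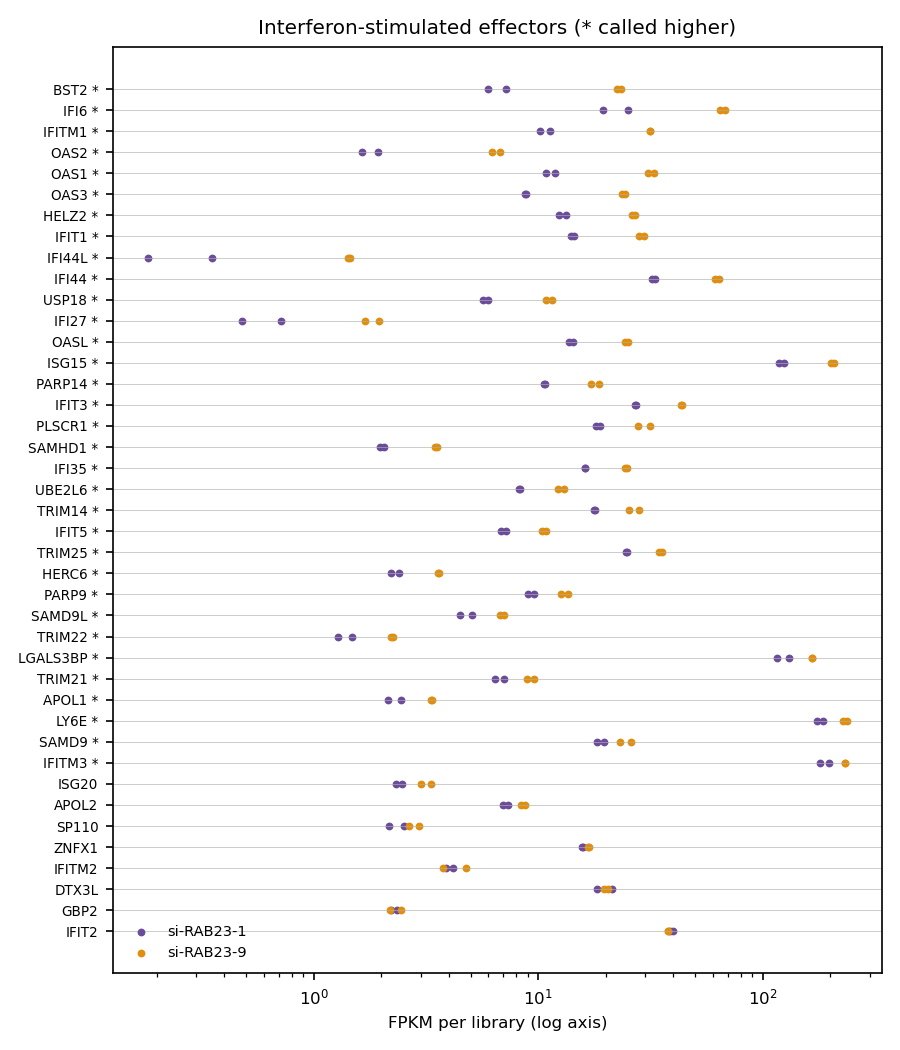
FPKM of tested interferon-stimulated effectors in each library, 1 uncalled member left out (horizontal log axis), with purple points for si-RAB23-1 and orange for si-RAB23-9. Genes are ordered by their log2 difference and an asterisk marks the 33 called higher; BST2 is at the top and IFIT2, where all 4 libraries lie close together, at the bottom.

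Upstream of these effectors, 8 of 26 tested genes of RNA sensing and interferon signalling were higher and 0 lower (7.67% and 6.71% over all genes), with a median of 0.19. DDX58, which encodes the RNA sensor RIG-I, was at 8.58 and 8.62 against 18.5 and 17.3 FPKM, a log2 difference of 0.98 (SE 0.0517, limma adjusted p = 0.00526). IFIH1, the gene of the related sensor MDA5, was at 6.03 and 6.04 against 9.53 and 9.27 FPKM, and was picked after its value was seen. The feedback inhibitor SOCS1 was at 1.48 and 1.70 against 3.54 and 3.70 FPKM. It was lower with si-RAB23-1 than in si-NC, at 4.20 and 3.53, so the si-RAB23-9 level was near the control. IFNL1, an interferon gene, was at 0.352 and 0.315 against 1.73 and 1.45 FPKM, on 11 and 50 reads. The call of SOCS1 was lost without si-RAB23-9 replicate 2 (adjusted p = 0.0532). That of IFNL1 was lost without si-RAB23-1 replicate 1 or either si-RAB23-9 library (adjusted p up to 0.113), and the list's count of higher genes was 6, 8, 4 and 3.

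Genes of MHC class I antigen presentation, which show peptides to T cells, were higher in 8 and lower in 1 of 21 tested (median 0.19). Over all tested genes 7.67% were higher and 6.71% lower. TAP1, a subunit of the peptide transporter, was at 6.93 and 7.56 against 12.2 and 12.5 FPKM, a log2 difference of 0.69. HLA-B, a heavy chain gene, was at 30.1 and 28.0 against 39.6 and 42.8 FPKM, and its reads can be shared with the near-identical HLA-C. B2M, the invariant light chain, went the other way, at 64.3 and 61.6 against 46.8 and 45.8 FPKM (log2 difference -0.44, limma adjusted p = 0.00942). Its longest annotated 3′ UTR holds 3 copies of the 7-mer AAGTTAA described below, but a part of this word in its level was not tested. The calls of HLA-B and B2M were lost without si-RAB23-9 replicate 2 (adjusted p = 0.0689 and 0.057), and the list's count of higher genes was 5, 7, 2 and 1.

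Of 16 NF-kappaB targets and inflammatory cytokines, 7 were higher and 1 lower (median 0.32), beside 7.67% and 6.71% of all tested genes. BIRC3, an inhibitor of apoptosis, was at 2.53 and 2.33 against 5.04 and 4.57 FPKM, and RELB, a subunit of the factor itself, at 5.03 and 5.68 against 10.0 and 9.28. Their log2 differences were 0.76 and 0.75. In si-NC BIRC3 was at 4.25 and 4.33 FPKM and RELB at 9.62 and 7.99. For both genes the si-RAB23-9 level was near the control and the si-RAB23-1 level below it. IL18 was lower, at 16.03 and 12.9 against 9.45 and 9.69 FPKM, and its call was lost without either si-RAB23-9 library (adjusted p up to 0.102). The count of higher genes was 4, 5, 2 and 2.

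The other genes among the 15 of largest positive difference have no common list. S100A4, a calcium-binding protein gene that overlaps S100A3 on the same strand, was at 6.54 and 6.93 against 16.6 and 17.9 FPKM (log2 difference 1.24, SE 0.0604, limma adjusted p = 0.00526). Its si-NC libraries, at 12.3 and 11.4, lay between the siRNAs. LAMP3, a lysosomal membrane protein gene, was at 3.15 and 3.37 against 8.45 and 8.18 FPKM, and HELZ2, a helicase gene of the interferon list, at 12.4 and 13.3 against 27.1 and 26.1. KRT80, an epithelial keratin gene, was at 47.3 and 49.98 against 96.1 and 98.1 FPKM, and at 136 and 127 in si-NC, so it was below the control with both siRNAs. TRIB2, a pseudokinase gene, was at 2.72 and 3.60 against 7.18 and 7.62 FPKM, and FZD1, a Wnt receptor gene, at 1.92 and 1.89 against 4.73 and 4.78. KRT16P2, at 1.53 and 1.26 against 4.06 and 4.73 FPKM, is a pseudogene whose reads can come from near-identical keratin genes. C1QL1, a secreted C1q-like protein gene, was at 1.398 and 2.78 against 5.48 and 5.44 FPKM. Its call was lost without either si-RAB23-9 library (adjusted p up to 0.0996), while the other 14 of the 15 kept theirs with any 1 library left out.

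**Figure D3:**
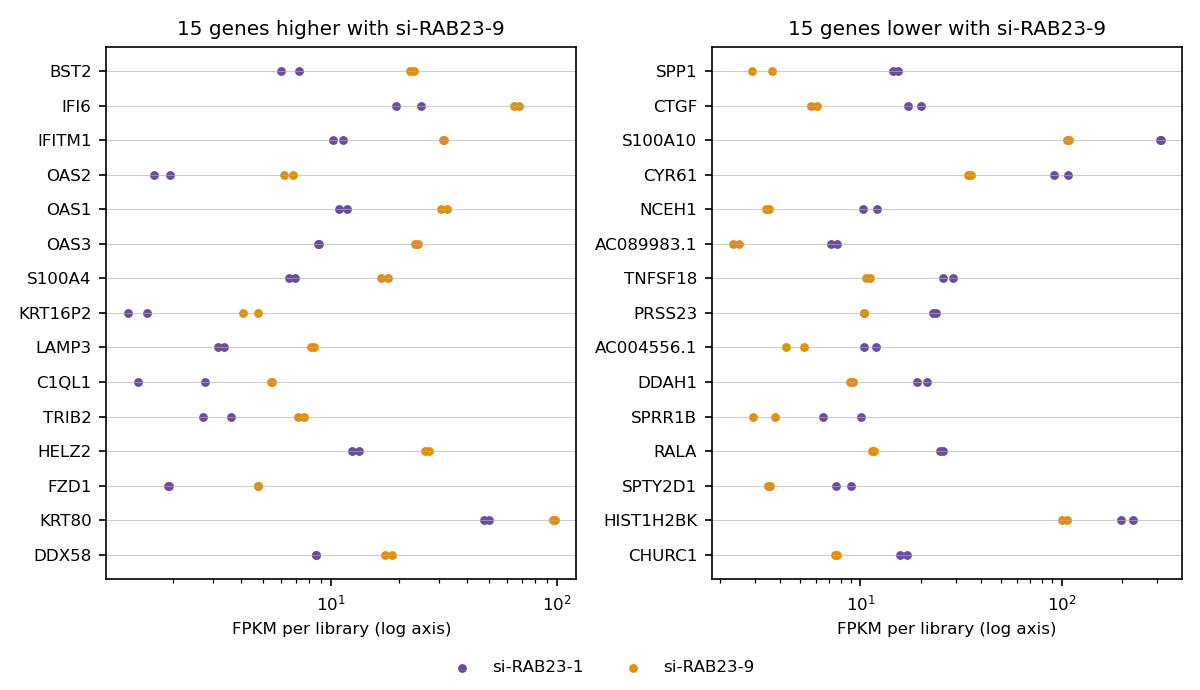
FPKM per library (horizontal log axes) of the 15 genes with the largest positive and the 15 with the largest negative log2 difference among called genes with at least 20 recovered reads on average. Purple points are the 2 si-RAB23-1 libraries and orange points the 2 si-RAB23-9 libraries. Only genes whose groups do not overlap were eligible, as holds for 64.0% of all tested genes.

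Among the genes lower with si-RAB23-9 than with si-RAB23-1, the secreted matricellular protein genes SPP1, CTGF and CYR61 and the S100 family gene S100A10 led. SPP1 (ENSG00000118785, chromosome 4, 87975650 to 87983426), which encodes osteopontin, was at 15.4 and 14.6 FPKM with si-RAB23-1 and at 2.90 and 3.62 with si-RAB23-9 (log2 difference -1.91, SE 0.0953, limma adjusted p = 0.00526). In si-NC it was at 1.62 and 1.72, so both siRNAs lay above the control and si-RAB23-1 the farther. CTGF and CYR61, matricellular proteins and classic targets of the coactivator YAP, were at 20.1 and 17.3 against 6.09 and 5.69 FPKM and at 108 and 91.9 against 34.4 and 35.6. Their si-NC levels, at 7.61 and 8.51 for CTGF and 47.5 and 46.7 for CYR61, lay between the siRNAs. Their log2 differences were -1.51 and -1.48. S100A10 (ENSG00000197747, chromosome 1, 151982915 to 151994390), the partner of annexin A2 at the membrane, was at 311 and 308 against 109 and 106 FPKM. It was at 293 in each si-NC library, so the level stood apart with si-RAB23-9 (log2 difference -1.51, SE 0.0327, limma adjusted p = 0.00204).

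The same arrangement held for NCEH1, whose product hydrolyses cholesteryl esters, at 12.2 and 10.3 against 3.39 and 3.50 FPKM, with 11.3 and 11.1 in si-NC. For the other genes whose levels follow, the si-NC mean lay between the siRNAs. The exception was SPRR1B, at 3.04 and 3.47 in si-NC, a mean below both. RALA, a Ras-like GTPase gene, was at 25.8 and 24.9 against 11.7 and 11.4 FPKM, and DDAH1, which degrades methylated arginines, at 21.5 and 19.1 against 9.22 and 8.85. TNFSF18, the gene of the GITR ligand, was at 28.9 and 25.7 against 10.6 and 11.2 FPKM. PRSS23, a secreted protease gene, was at 23.9 and 23.1 against 10.5 and 10.4 FPKM, and CHURC1 at 17.0 and 15.7 against 7.64 and 7.48. SPTY2D1, a histone chaperone gene, was at 9.01 and 7.54 against 3.49 and 3.54 FPKM, and the histone gene HIST1H2BK at 198 and 227 against 101 and 106. The log2 differences of these genes ran from -1.45 for NCEH1 to -1.02 for CHURC1. AC089983.1, at 7.66 and 7.12 against 2.49 and 2.33 FPKM, is antisense to TXNRD1, and reads of the pair cannot be told apart without strand. PRSS23 and CHURC1 overlap FZD4 and GPX2 on the other strand. AC004556.1, on the scaffold KI270721.1, was at 11.99 and 10.5 against 5.22 and 4.26 FPKM. SPRR1B, a cornified envelope gene, was at 10.0 and 6.53 against 3.76 and 2.91 FPKM. It no longer passed without si-RAB23-1 replicate 1 or either si-RAB23-9 library (adjusted p up to 0.0957), and the other 14 of the 15 lower genes kept theirs with any 1 library left out.

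Many of the lower genes shared a short word in the 3′ UTR. The 7-mers AAGTTAA and GACATAT were taken from earlier results on these data, so their shares are a description and no independent evidence. AAGTTAA was present in the longest annotated 3′ UTR of 9 of the 12 genes with one among the 15 lower genes, and of 0 of the 14 among the 15 higher. GACATAT was present in 3 of the 14 and 0 of the 12. The target sites below show the 7-mer in capitals within 29 bases of the transcript, read from GENCODE 29 on GRCh38. The first 4 belong to lower genes and the last 3 to higher genes. They lie on chromosome 1 from 151982982 to 151983010 (S100A10, minus strand), chromosome 3 from 172633079 to 172633107 (NCEH1, minus strand), chromosome 7 from 39707432 to 39707460 (RALA, plus strand), chromosome 6 from 131948599 to 131948627 (CTGF, minus strand), chromosome 12 from 52169712 to 52169740 (KRT80, minus strand), chromosome 2 from 12742037 to 12742065 (TRIB2, plus strand) and chromosome 7 from 91268134 to 91268162 (FZD1, plus strand).
S100A10: cagagaaagaaAAGTTAAataccagataa
NCEH1: tgacctttaatAAGTTAAaaaaacgagga
RALA: tacattttcagAAGTTAAcatcaagccat
CTGF: tacagttatctAAGTTAAtttaaagttgt
KRT80: tggggatacaaGACATATaaagtatatat
TRIB2: tgacttgggatGACATATtacatgctgta
FZD1: tcaaataactaGACATATatcagaaactt

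Over all 10826 protein-coding genes with an annotated 3′ UTR, AAGTTAA was found in 37.1% of the 803 lower genes, 7.22% of the 983 higher genes and 16.1% of the 9040 uncalled genes. By the difference between the lower and the higher genes it ranked 2 of 16384 7-mers, behind AGTTAAA, which overlaps it. Of its 1825 carriers 16.3% were lower, against 5.61% of the other genes. The share called lower was 5.61% with 0 copies, 14.5% with 1, 21.7% with 2 and 23.5% with 3 or more. GACATAT was found in 17.6% of the higher, 4.86% of the lower and 6.83% of the uncalled genes. It ranked 22 by the difference between higher and lower genes. Of its 829 carriers 20.9% were higher, against 8.1% of the others. The median log2 difference was -0.077 over carriers of AAGTTAA and 0.09 over carriers of GACATAT.

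The 3′ UTRs of the called genes also differed in length and base composition. Their median length was 1311 bases for higher, 1743 for lower and 1340 for uncalled genes, and their median GC content was 48.7%, 37.9% and 42.9%. Within each of 5 ranges of length and each of 4 ranges of GC content, carriers of AAGTTAA were more often lower than the other genes. In 3′ UTRs with under 35.9% GC the shares were 18.9% and 8.02%, and in those with over 52.4% GC 8.14% and 3.2%. Carriers of GACATAT were likewise more often higher in every range, with 20.3% against 4.38% under 35.9% GC and 36.2% against 13.3% over 52.4% GC. Among the 420 7-mers made of the same bases as GACATAT it had the largest difference between higher and lower genes, at 12.7 percentage points, and the next, TGACATA, had 3.26. Among the 105 with the bases of AAGTTAA that word ranked 2, behind its neighbour by 1 base, with 29.9 points against a median of 9.65. Both words were chosen from these same data, so these ranges and ranks are a description and no test. The part of length and base composition in the shares was not tested. Not all leading genes carried either word. SPP1, CYR61, CAV1, TP63 and DSG3 have neither in their longest 3′ UTR. AAGTTAA was also present in higher genes named below, with 1 copy in ORC6, SPARC and RAB22A and 2 in LIN28B. RAB22A and LIN28B hold 1 copy of GACATAT as well. GACATAT was present in other named higher genes, with 2 copies in AGO4 and DICER1 and 1 in TGFBR1, TP53INP1, ITGB1, RAB8B and RELB. RAB23 itself, which was not called, holds 2 copies of GACATAT and 0 of AAGTTAA. The siRNA sequences are not among the sources used here, so a match of either siRNA to these words was not tested.

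**Figure D4:**
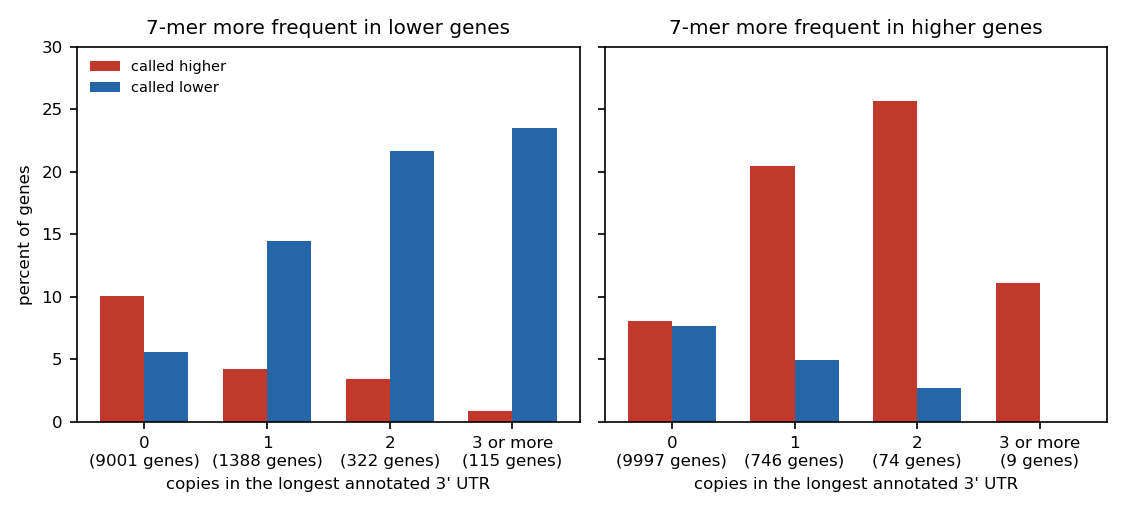
Percent of genes called higher (red) and lower (blue) with si-RAB23-9 by the number of copies of a 7-mer in the longest annotated 3′ UTR, AAGTTAA on the left and GACATAT on the right, with the number of genes under each pair of bars. On the left the share called lower goes from 5.61% at 0 copies to 23.5% at 3 or more; on the right the share called higher goes from 8.1% to 20.5% at 1 copy and 25.7% at 2, and the last pair rests on 9 genes.

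Proliferation genes were higher with si-RAB23-9 than with si-RAB23-1. Of 53 tested genes of S phase and DNA replication 28 were higher and 1 lower (7.67% and 6.71% over all genes), with a median of 0.27. ORC6, a subunit of the origin recognition complex, was at 7.30 and 6.77 against 12.2 and 10.9 FPKM, a log2 difference of 0.64. GINS2, part of the replicative helicase, was at 7.69 and 7.76 against 11.5 and 11.7 FPKM, a difference of 0.54. CCNE1, the gene of cyclin E1, which drives entry into S phase, was at 2.58 and 2.79 against 4.17 and 5.17 FPKM. Of the helicase subunits MCM2 to MCM7, 5 of 6 were called higher, with MCM4 at 43.8 and 44.0 against 62.5 and 61.1 FPKM, and MCM6 was not (log2 difference 0.25, limma adjusted p = 0.0614). This complex was picked from the list after its values were seen. RRM2, a ribonucleotide reductase subunit gene, was lower, at 14.3 and 12.4 against 8.95 and 8.16 FPKM. Its longest 3′ UTR holds 3 copies of AAGTTAA, and that of ORC6, which was higher, holds 1. The call of CCNE1 was lost without any 1 library except si-RAB23-9 replicate 1 (adjusted p up to 0.0943), and that of RRM2 without si-RAB23-1 replicate 1 or si-RAB23-9 replicate 2 (adjusted p up to 0.0764). The list's count of higher genes was 16, 24, 5 and 4.

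Of 50 tested genes of G2 and mitosis 26 were higher and 0 lower (7.67% and 6.71% over all genes), with a median of 0.24. FOXM1, the transcription factor of the mitotic programme, was at 12.3 and 12.6 against 18.01 and 18.3 FPKM (log2 difference 0.51, SE 0.0428, limma adjusted p = 0.00812). BIRC5, which encodes survivin, was at 35.8 and 34.1 against 47.4 and 46.2 FPKM, and UBE2C, a ubiquitin-conjugating enzyme of mitotic exit, at 42.9 and 44.6 against 59.0 and 57.9. CKAP2, a spindle protein gene, was at 13.2 and 11.5 against 17.5 and 16.1 FPKM. The si-NC levels of FOXM1, at 15.01 and 16.4, lay between the siRNAs, and those of BIRC5, at 33.3 and 34.5, near si-RAB23-1. Those of UBE2C, at 54.9 and 57.6, and of CKAP2, at 16.2 and 17.2, lay near si-RAB23-9. The summed FPKM of the list's 51 members was 1793 and 1789 in si-NC and 1804 and 1772 with si-RAB23-9. With si-RAB23-1 it was lower, at 1576 and 1488. The calls of BIRC5 and UBE2C were lost without either si-RAB23-9 library (adjusted p up to 0.0677), and that of CKAP2 without any 1 library except si-RAB23-1 replicate 1 (adjusted p up to 0.124). The list's count was 17, 18, 1 and 1.

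The regulators of G1 were divided, with 6 of 19 higher and 2 lower (median 0.1), beside 7.67% and 6.71% of all tested genes. CCND1, the gene of cyclin D1, was at 59.0 and 58.8 against 75.9 and 77.0 FPKM, and CDKN1A, the gene of the cell-cycle inhibitor p21, at 65.9 and 72.3 against 92.6 and 96.0. Both were below their si-NC levels with either siRNA, at 114 and 113 for CCND1 and 113 and 106 for CDKN1A. CDKN2B, which encodes the inhibitor p15, was lower, at 24.6 and 24.8 against 13.9 and 13.1 FPKM (log2 difference -0.82), and so was its target kinase CDK6, at 19.1 and 17.3 against 13.2 and 12.4. The longest 3′ UTRs of CDKN2B and CDK6 hold 1 and 3 copies of AAGTTAA, but a part of this word in their levels was not tested. The calls of CCND1, CDKN1A and CDK6 were lost without either si-RAB23-9 library (adjusted p up to 0.0835), and the list's count of higher genes was 3, 4, 1 and 0.

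In the Hippo pathway YAP drives genes of adhesion and growth. Of 37 tested genes of this pathway and YAP targets, listed together, 14 were lower and 2 higher (median -0.17). Called in either direction were 43.2% of them, beside 14.4% of all tested genes. Besides CTGF and CYR61, lower members included AJUBA, an adaptor at junctions, at 13.3 and 13.7 against 7.49 and 7.15 FPKM, and F3, the gene of tissue factor, at 143 and 125 against 83.2 and 79.8. Their log2 differences were -0.80 and -0.70. The higher members were the transcription factor genes TEAD2 and TEAD3, at 2.23 and 2.13 against 3.43 and 3.39 FPKM and at 16.6 and 18.1 against 21.5 and 21.5, named because they are the exceptions. Their calls were lost without si-RAB23-1 replicate 1 or either si-RAB23-9 library. AJUBA and CTGF carry 1 copy of AAGTTAA in their longest 3′ UTRs, and CYR61 and F3 carry 0. The list's count of lower genes was 8, 14, 4 and 4.

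Immediate early and AP-1 genes, which respond within minutes to growth signals, were lower in 9 of 23 and higher in 1 (median -0.18). Called in either direction were 43.5% of this list and 52.4% of the matricellular list below, beside 14.4% of all tested genes. KLF6, a zinc finger transcription factor gene, was at 27.6 and 25.01 against 16.1 and 14.8 FPKM, and ZFP36, which promotes decay of AU-rich mRNAs, at 24.6 and 23.4 against 17.2 and 15.3. BTG2, an antiproliferative gene, was the higher member, at 13.4 and 14.1 against 22.9 and 25.7 FPKM, a log2 difference of 0.78. The call of ZFP36 was lost without si-RAB23-1 replicate 1 or si-RAB23-9 replicate 2 (adjusted p up to 0.057), and the count of lower genes was 4, 8, 3 and 2. Matricellular and secreted matrix proteins, which share CTGF and CYR61 with the lists above, were lower in 9 of 21 and higher in 2, with counts of lower genes of 8, 8, 5 and 5. SPARC, a collagen-binding glycoprotein gene, was one of the higher, at 1.72 and 2.25 against 4.49 and 4.51 FPKM, with a call lost without si-RAB23-9 replicate 2 (adjusted p = 0.0526). Of 14 genes of EGF receptors and their ligands 4 were lower and 1 higher, beside 6.71% and 7.67% of all tested genes, and the count of lower genes was 3, 5, 0 and 0. TGFA, a ligand, was at 22.7 and 20.4 against 15.6 and 15.5 FPKM, and its call was lost without either si-RAB23-9 library (adjusted p up to 0.0819).

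Adhesion and cytoskeleton genes were more often lower than higher. Of 31 epithelial junction genes 11 were lower and 4 higher, of 29 genes of integrins and focal adhesion 8 and 3, and of 33 genes of actin and tropomyosin 9 and 2. Their medians were -0.12, -0.06 and -0.11. Called in either direction were 48.4%, 37.9% and 33.3% of these lists, beside 14.4% of all tested genes. ACTG1, the gene of gamma actin, was at 1298 and 1287 against 891 and 866 FPKM (log2 difference -0.56, SE 0.0293, limma adjusted p = 0.00526). CAV1, which encodes the main protein of caveolae, was at 148 and 136 against 84.4 and 80.2 FPKM. DSG3, a desmosomal cadherin gene of stratified epithelium, was at 18.8 and 17.4 against 9.63 and 9.00 FPKM, with 8.93 and 9.37 in si-NC, so it was high with si-RAB23-1. ITGA6, a laminin receptor subunit gene, was lower, at 105 and 96.2 against 76.2 and 74.2 FPKM. ITGB1 and ITGA5, which together form the fibronectin receptor, were higher, at 41.8 and 40.4 against 55.4 and 53.4 and at 10.3 and 9.87 against 13.8 and 13.7. The calls of all 3 integrin genes were lost without either si-RAB23-9 library (adjusted p up to 0.0795). The counts of lower genes were 5, 9, 1 and 1 for junctions, 6, 8, 2 and 1 for integrins and 7, 10, 5 and 3 for actin.

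Of the 9 tested squamous epithelial markers 6 were lower and 2 higher (6.71% and 7.67% over all genes), with a median of -0.45. TP63, the transcription factor gene that defines squamous epithelium, was at 19.7 and 19.1 against 12.03 and 11.4 FPKM, a log2 difference of -0.68. KRT6A, a keratin gene of activated epithelium, was at 9.73 and 8.79 against 5.35 and 5.39 FPKM. EPCAM and CDH1, the higher members, are not particular to squamous epithelium. EPCAM was at 87.1 and 85.0 against 95.1 and 96.8 FPKM, and CDH1 at 80.9 and 84.0 against 94.8 and 95.8. Both lost their calls without si-RAB23-1 replicate 1 or either si-RAB23-9 library, EPCAM also without si-RAB23-1 replicate 2. The summed FPKM of the 10 markers was 518.8 to 526.9 with si-RAB23-1, 488.6 to 488.7 with si-RAB23-9 and 498.4 to 517 in si-NC. Most of this sum came from EPCAM, CDH1 and SFN, the last at 292.0 and 301.2 against 264.3 and 261.5 FPKM. It therefore says little about the other markers. Squamous differentiation genes were divided, with 6 of 26 higher and 3 lower (7.67% and 6.71% over all genes), and counts of higher genes of 3, 8, 2 and 2. KLK6, a kallikrein protease gene, was at 21.1 and 23.5 against 36.2 and 37.8 FPKM. The marker count of lower genes was 4, 4, 3 and 3.

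Genes of MYC and ribosome biogenesis were lower in 6 of 40 and higher in 1 (median -0.12), and these 17.5% called are near the 14.4% over all genes. DDX21, an RNA helicase gene of the nucleolus, was at 64.4 and 58.0 against 34.5 and 32.9 FPKM, a log2 difference of -0.84. Its longest 3′ UTR holds 2 copies of AAGTTAA, and those of MYC and ODC1 hold 0. MYC was at 50.2 and 44.3 against 34.1 and 31.2 FPKM, with 23.1 and 22.1 in si-NC, so it was above the control with both siRNAs. MYC no longer passed without si-RAB23-1 replicate 1 or either si-RAB23-9 library (adjusted p up to 0.0815), and the list's count of lower genes was 2, 11, 3 and 2. ODC1, the rate-limiting enzyme gene of polyamine synthesis, was at 75.6 and 72.0 against 50.5 and 50.6 FPKM.

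**Figure D5:**
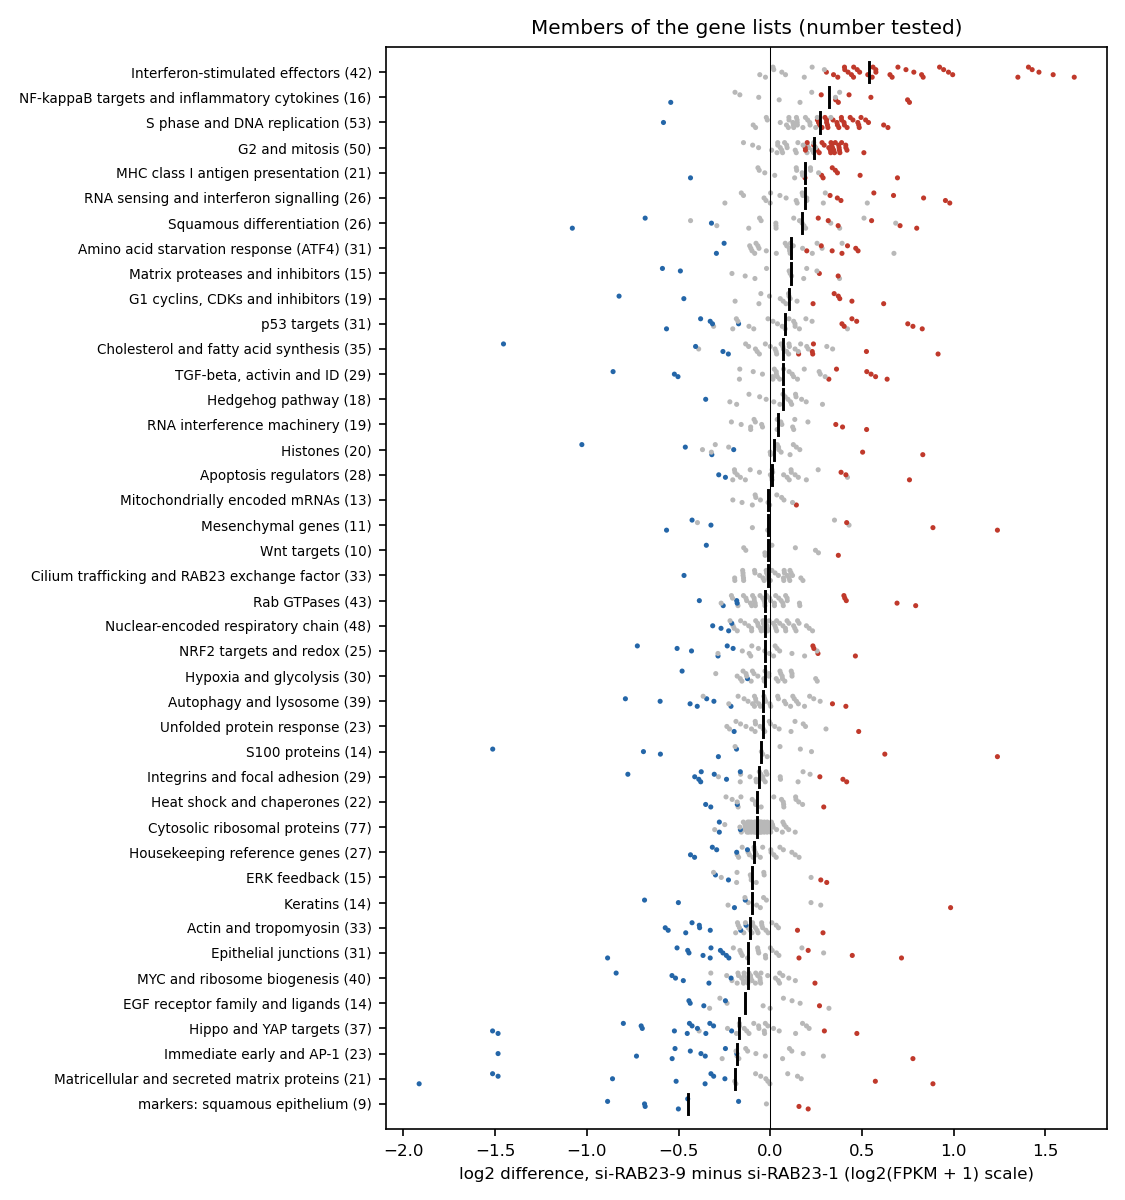
Log2 difference between si-RAB23-9 and si-RAB23-1 (horizontal axis) of each tested member of the gene lists with at least 5 tested members, with the number tested in brackets. Red points were called higher, blue points lower and grey points neither, and the black bar is the list's median, 0.54 for interferon-stimulated effectors at the top and -0.45 for squamous epithelial markers at the bottom.

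Hedgehog signalling and the cilium, where RAB23 is known to act, were examined next. Of 18 tested Hedgehog pathway genes 0 were higher and 1 lower, and of 33 genes of cilium trafficking 0 and 1. Called in either direction were 5.56% and 3.03% of these lists, beside 14.4% of all tested genes. Calls were fewer at low levels, with 4.02% of genes under a mean of 2 FPKM and 9.84% from 2 to 5. The lists were not matched to other genes by level. The Hedgehog member was PRKACB, a catalytic subunit gene of protein kinase A, at 13.7 and 12.9 against 10.4 and 10.0 FPKM. The cilium member was WDR35, a subunit gene of retrograde transport, at 2.63 and 2.77 against 1.73 and 1.61. Both calls were lost without si-RAB23-1 replicate 1 or either si-RAB23-9 library (adjusted p up to 0.114 and 0.132), and that of WDR35 also without si-RAB23-1 replicate 2. Voom on recovered reads called 3 Hedgehog genes higher and 4 lower with median-of-ratios sizes. Of 43 Rab GTPase genes 5 were higher and 4 lower, or 20.9% called beside 14.4% of all genes. RAB15 was at 4.84 and 6.19 against 10.1 and 10.4 FPKM, RAB8B at 3.54 and 4.13 against 7.10 and 6.503, and RAB22A at 5.73 and 5.98 against 8.20 and 8.06. These genes of endosomal and membrane traffic were near their si-NC levels with si-RAB23-9, at 9.62 and 9.69, 6.91 and 6.81, and 8.07 and 8.02. RAB15 lost its call without either si-RAB23-9 library, RAB8B without si-RAB23-9 replicate 1, and RAB22A without si-RAB23-1 replicate 1 or either si-RAB23-9 library (adjusted p up to 0.0612, 0.0574 and 0.0808). The Rab count of higher genes was 2, 4, 0 and 1, and of lower genes 0, 4, 0 and 0.

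The stress and metabolic lists held calls in both directions. Among NRF2 and redox genes 4 of 25 were higher and 6 lower, among cholesterol and fatty acid genes 6 of 35 and 4, and in the amino acid starvation response 7 of 31 and 2, beside 7.67% and 6.71% of all tested genes. The counts of higher and of lower genes were 2, 5, 0 and 1 and 3, 5, 1 and 2 for NRF2, 2, 5, 2 and 2 and 2, 4, 1 and 1 for cholesterol, and 5, 8, 1 and 0 and 1, 2, 0 and 0 for amino acid starvation. INSIG1, a brake on sterol synthesis, was at 17.2 and 16.9 against 24.6 and 25.2 FPKM (log2 difference 0.52). HMOX1, a haem-degrading enzyme gene of the NRF2 list, was at 11.9 and 12.1 against 7.0 and 6.75 FPKM. GABARAPL1, a gene of autophagosome formation, was at 52.2 and 48.1 against 28.8 and 28.4 FPKM. Among p53 targets, 7 of 31 were higher and 5 lower, with TP53INP1 at 3.47 and 3.98 against 7.52 and 7.23 FPKM and PLK2 at 57.0 and 51.1 against 35.7 and 36.6. Called in either direction were 38.7% of the p53 list, beside 14.4% of all genes, and its counts were 4, 10, 2 and 2 for higher and 3, 5, 1 and 1 for lower genes. Of 19 genes of the RNA interference machinery 3 were higher and 0 lower, and this 15.8% is near the 14.4% over all genes. They were AGO4, at 3.63 and 3.81 against 5.67 and 5.92 FPKM, LIN28B and DICER1, with log2 differences of 0.52, 0.39 and 0.36, and the count was 1, 1, 0 and 0. TGFBR1, a TGF-beta receptor gene, was at 25.8 and 26.9 against 41.7 and 41.3 FPKM, and FST, an activin antagonist gene, at 6.02 and 5.59 against 2.85 and 2.66.

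By class, 16.5% of protein-coding genes, 8.01% of 512 lincRNA genes and 4.8% of 688 antisense genes were called, in a test that called few genes at low levels. Of the lincRNA genes 8 were higher and 33 lower, and of the antisense genes 9 and 24. Among the called genes counted above, 9 were at 0 in both libraries of one siRNA and at 1 FPKM or more in both of the other. The microRNA precursor genes MIR3128 and MIR760 were at 0 with si-RAB23-1. MIR4782, MIR548AC, MIR548AU, MIR181B1 and MIR4534, the short RNA gene RNA5SP197 and the RF00019 gene ENSG00000206927 were at 0 with si-RAB23-9. Each rested on 3 to 8 reads in all, and 8 of the 9 lie within a longer tested gene whose reads could be counted for them, so no fold is given. All 9 passed the FPKM limit only through the siRNA in which they were read. The limit was not applied again with a library left out, so a call kept in such a fit is no support. Except for MIR3128 and MIR4782, the calls were lost on leaving out at least 1 library. Those of MIR548AU, MIR181B1 and RNA5SP197 were lost on leaving out any.

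The mean si-NC level lay between the siRNAs for 65.6% of the 1065 higher genes and 69.1% of the 932 lower genes, beside 38.8% of all tested genes. For 17.9% of the higher genes si-NC lay above both siRNAs, as for KRT80, and for 16.4% below both. For the lower genes these shares were 14.5% and 16.4%. si-RAB23-1 was the farther from si-NC in 53.1% of the higher genes and si-RAB23-9 in 53.5% of the lower. Called genes were chosen for a gap between the siRNAs, and a wider gap holds another level more often. The excess over 38.8% is therefore no result about the called genes. The comparisons with si-NC also share its libraries, so these shares are a description of levels.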

How the data were processed

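RNA of KYSE30 cells had been sequenced in 6 libraries. The values are FPKM in the table the authors deposited. Per the submitters' processing notes, the tools were STAR 2.5.1b with RSEM 1.2.29, Trimmomatic 0.36 with FastQC, and edgeR 3.8.5, whose roles are not stated. The notes name hg19, but coordinates of all 58735 genes equal GENCODE 29 on GRCh38, the build used here. FPKM times gene length gave whole reads for 100% of values within 0.01. Reads of overlapping, antisense or near-identical genes could be assigned to either gene.

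Genes that reached 1 FPKM in 2 or more of the 4 RAB23 siRNA libraries were tested on log2(FPKM + 1) by limma 3.58.1 (R 4.3.3), with 1 mean per siRNA, eBayes with a trend, 2 residual degrees of freedom, two-sided tests and Benjamini-Hochberg adjustment over 13887 genes. The log2(FPKM + 1) scale understates changes of low genes. The script was tested on simulated data.

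The comparison, the gene lists and the 7-mers were chosen with earlier results of these data known. The genes named were RAB23, in each direction the 15 called genes that differed most, with non-overlapping groups and at least 20 reads on average, up to 4 called members of each list, genes at 0 with one siRNA, and up to 2 members of lists with no called member. Alternatives were another pseudocount, filter, scaling, fit over 6 libraries, replicate block, no trend, voom on recovered reads, and leaving out each library. A few named genes are not reported here.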

Additional observations from a re-analysis of the deposited data

How the results depend on the processing

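The replicate numbers shared by the siRNAs did not pair the libraries (correlation of their deviations 0.0636, from 2 pairs). With the replicate block 988 genes were higher and 836 lower. Counts moved by over 1.5 times under several settings. Without a filter on low values (33360 genes tested) 144 were higher and 109 lower, without the mean-variance trend 554 and 422, with all 6 libraries in the fit 1629 and 1449, with voom on recovered reads and library totals 2539 and 1694, and with median-of-ratios sizes 2134 and 1985. With 1 library left out they ranged from 163 to 1093 and from 160 to 960, with 1 residual degree of freedom and the lone library assumed to vary like the other group. Genes past a log2 difference of 1 numbered 62 higher and 50 lower with a pseudocount of 0.1, 12 and 16 without the filter, 8 and 18 at a mean FPKM of at least 5, 92 and 58 with voom on library totals and 83 and 66 with median-of-ratios sizes. With 1 library left out they ranged from 18 to 59 and from 26 to 37.

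Without the filter, the called members were 17 interferon effectors, 3 genes of S phase, 3 of G2 and mitosis and 4 lower genes of the Hippo list. Without the trend the last 3 counts were 13, 10 and 8. With 1 library left out the 4 counts ranged from 19 to 28, 4 to 24, 1 to 18 and 4 to 14. RAB23 passed the test under none of the 13 alternatives that include it, with differences from 0.0815 to 0.222. Of 162 named and called genes 63 kept their call with any 1 library left out. The direction turned in 1 named gene, GAPDH (ENSG00000111640), from -0.12 to 0.0969 with quantile normalization. When every si-NC library rather than the mean had to lie outside the siRNAs, the shares of higher genes with si-NC above and below both were 10.3% and 9.67%, and of lower genes 7.62% and 10.6%. The 7-mer shares moved within their counting intervals with all annotated 3′ UTRs. Low counts limit RAB23 and the short RNA genes, on 0 to 221 reads per siRNA.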
